A study of Mus musculus with 15 samples.

Results

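Imprinted genes are expressed mainly from the chromosome inherited from the mother or from the father. They were described here in Apela knockout and wild-type mouse embryos at embryonic day 7.5. A list of 40 imprinted genes was matched by GENCODE gene symbol to a table of 45232 genes, and 39 were found. Of these, 38 had a mean normalized count of at least 10 over all 15 libraries, as did 16430 genes in the whole table. Kcnk9, a potassium channel gene, fell below that limit with a mean of 0.26 and was at 0 in every NEO-OUT and wild-type library. Peg13, a noncoding RNA gene, is not analysed here. Of the 38 genes, 21 are known to be expressed from the paternal allele and 11 from the maternal allele, and 6 differ in allele between isoforms or tissues. Reads were not assigned to alleles, so the values below are the sum over both parental copies, and imprinting itself was not measured.

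Each library came from a single whole embryo, with its embryonic and extraembryonic tissues kept together. The groups were 6 homozygous Apela null embryos of the mutant strain NEO-IN, numbered 1 to 6, 6 homozygous Apela null embryos of the mutant strain NEO-OUT, numbered 7 to 12, and 3 wild-type embryos. Apela encodes a secreted peptide ligand of the apelin receptor. Null embryos came from crosses between homozygous null parents, so their mothers lacked Apela too, embryos were matched in stage by their morphology, and the stock of each group is labelled C57Bl6/CD-1 mixed.

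Imprinted genes lie in clusters, and in most clusters a control region is methylated on the chromosome from a single parent, which sets which copy is read. Many of them act on growth: paternally expressed genes such as Igf2 tend to promote it, and maternally expressed genes such as Cdkn1c, Phlda2 and Igf2r tend to restrain it. At this stage several are abundant in the extraembryonic tissues that form the placenta and yolk sac. The zinc finger protein ZFP57 reads the hexamer TGCCGC, when methylated, at many control regions and protects their methylation.

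Depth ran from 48.8 to 61.3 M recovered reads per library. Apela itself averaged 11.5 ± 7.24 in NEO-IN, 69.6 ± 21.6 in NEO-OUT and 1663 ± 505 in wild-type embryos (normalized count, SD, n = 6, 6 and 3). Reads of 4 Y-linked genes were present in NEO-IN 1, 2 and 3 and in NEO-OUT 9 and 12, and in no wild-type embryo beyond a summed normalized count of 2.08. Within NEO-IN, embryo sex and the run of numbers 1 to 3 therefore cannot be told apart. Every defining marker of visceral endoderm, parietal endoderm, extraembryonic mesoderm and epiblast passed the limit of 10, as did 13 of 15 trophoblast markers. In such whole-embryo RNA, fewer cells of a type and less RNA per cell cannot be told apart.

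The promoter windows of 3 genes that differed between the mutant strains are shown because they hold the ZFP57 hexamer. A window runs from 250 bases before to 50 bases after a gene's start, and 32 of the imprinted genes had at least 1 window in the RefSeq table for GRCm38.p6. The letters TGCCGC or the reverse complement GCGGCA were found in 13 of 49 windows of imprinted genes, or 26.5%, and in 11.6% of all 32851 windows. Windows of alternative starts can overlap, so they are not independent. The Mest windows from 30737800 and from 30737803 hold the same 2 matches. By gene, 12 of 32 had the hexamer in a window. The share by gene over all genes is not given here. A gene with several windows can match in any of them, so this count cannot be set against the 11.6% of windows. The windows of imprinted genes held a median of 13 CG dinucleotides, against 7 over all windows. Of the 9 genes called between the strains below, 8 had a window, and the hexamer was in the windows of 3 and in no window of 5. A match is a description of the letters, not a measured site. The hexamer is in capitals, and each window is written 5′ to 3′ on the strand of its gene.
Mest, chr6:30737800-30738099, plus strand, 2 matches: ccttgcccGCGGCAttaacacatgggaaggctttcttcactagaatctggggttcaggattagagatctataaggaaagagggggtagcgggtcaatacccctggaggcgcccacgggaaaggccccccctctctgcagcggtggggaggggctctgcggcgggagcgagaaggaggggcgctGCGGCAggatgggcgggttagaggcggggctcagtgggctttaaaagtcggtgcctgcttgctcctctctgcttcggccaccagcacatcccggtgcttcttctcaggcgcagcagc
Nnat, chr2:157559828-157560127, plus strand, 1 match: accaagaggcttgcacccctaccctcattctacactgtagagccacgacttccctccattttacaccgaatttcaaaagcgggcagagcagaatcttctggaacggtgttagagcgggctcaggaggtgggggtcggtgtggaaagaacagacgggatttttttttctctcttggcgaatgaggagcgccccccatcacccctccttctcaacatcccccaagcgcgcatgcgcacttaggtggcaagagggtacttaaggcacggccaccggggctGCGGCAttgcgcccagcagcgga
Zim1, chr7:6696383-6696682, minus strand, 1 match: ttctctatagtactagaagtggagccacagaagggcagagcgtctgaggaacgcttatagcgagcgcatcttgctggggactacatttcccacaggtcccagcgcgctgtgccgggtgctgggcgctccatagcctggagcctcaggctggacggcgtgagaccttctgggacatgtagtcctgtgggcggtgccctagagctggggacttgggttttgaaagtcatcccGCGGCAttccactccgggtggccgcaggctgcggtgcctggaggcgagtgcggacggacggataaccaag

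Several of the genes are also hosts of microRNAs on the same strand. The mature forms shown come from the most abundant member, H19, and from 3 hosts that differed between the strains, with the seed (bases 2 to 8) in capitals, from RefSeq on GRCm38.p6. Mirg contained 26 mature microRNAs with 25 different seeds, and its miR-453 and miR-496a-5p share a seed. The libraries were made from polyadenylated RNA, so the microRNAs themselves were not measured.
mmu-miR-675-5p: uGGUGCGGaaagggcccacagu
mmu-miR-335-5p: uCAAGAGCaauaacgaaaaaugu
mmu-miR-370-3p: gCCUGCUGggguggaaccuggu
mmu-miR-453: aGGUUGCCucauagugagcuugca
mmu-miR-496a-5p: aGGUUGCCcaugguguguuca

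The imprinted genes were expressed at high levels in these embryos. Their median normalized count was 2683, against 893 over all genes tested. Together the 38 genes took 1.34 to 1.59% of the normalized counts of a library. H19 had the third highest mean of all genes, and H19, Igf2, Peg10 and Peg3 were among the 100 highest. There were 10 genes above 10000 and 3 below 100. Per kb of exon, H19 was at 145175 normalized counts, Phlda2 at 17360, Igf2 at 16761 and Peg10 at 13988, whereas Kcnq1ot1 was at 0.565. The SD of log2 values over the 15 libraries had a median of 0.15 for the imprinted genes, against 0.17 over all genes tested.

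**Figure D1:**
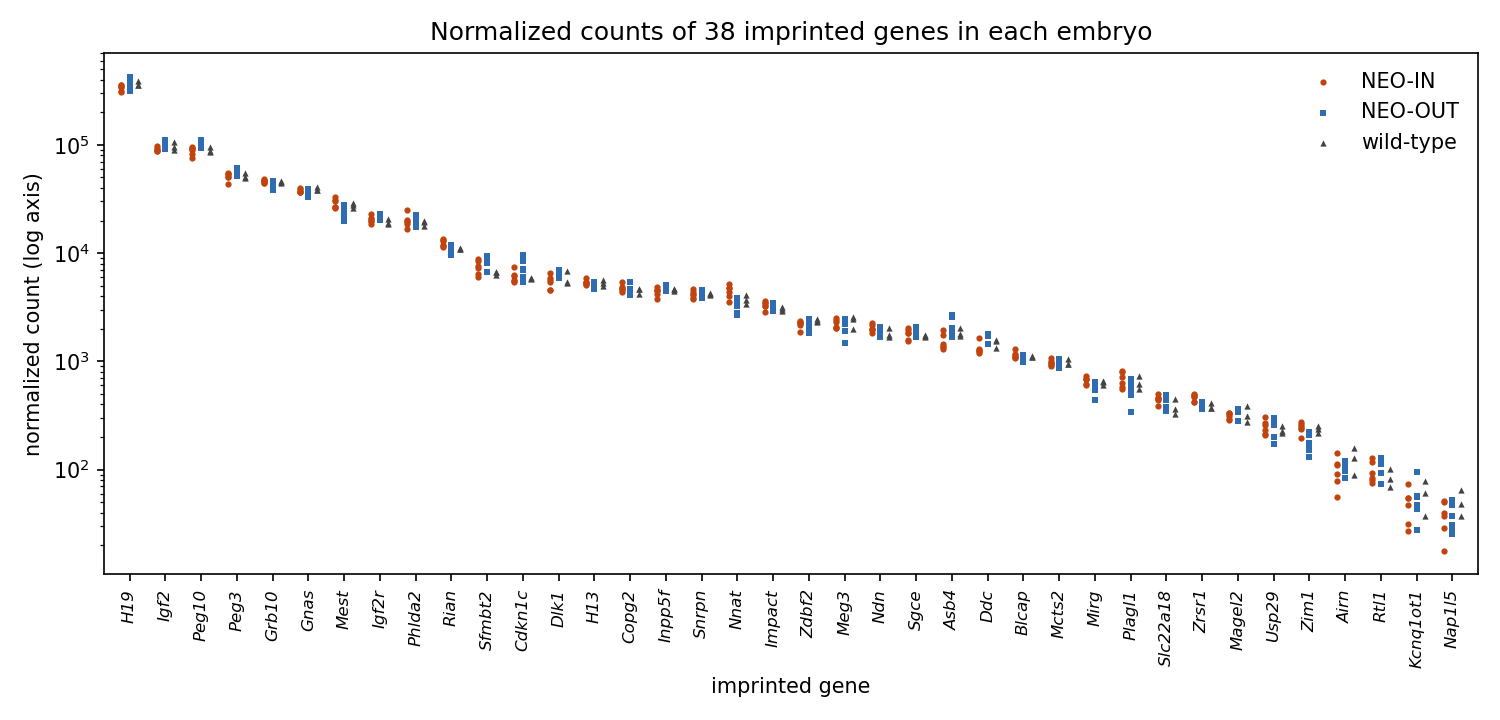
Normalized count (log axis) of 38 imprinted genes in each of 15 embryos, ordered by mean; each point is an embryo, with NEO-IN at the left, NEO-OUT in the middle and wild-type at the right of each gene. H19 lies highest, with 309433 to 425916 over the NEO-IN, NEO-OUT and wild-type embryos, and the groups overlap for most genes.

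None of the 38 imprinted genes passed the test against wild-type in either strain. A gene is called here when its Benjamini-Hochberg adjusted p from limma over all 16430 genes is under 0.05. In NEO-IN versus wild-type 0 of 38 imprinted genes were called, beside 2.98% of all genes tested. In NEO-OUT versus wild-type 0 of 38 were called, beside 6.35% of all genes. For all Apela KO embryos against wild-type, the mean of both strain effects, 0 of 38 were called, beside 2.83% of all genes. At an unadjusted limma p under 0.05 there were 3, 5 and 1 imprinted genes in these comparisons, or 7.89, 13.2 and 2.63% of them, against 18, 22.8 and 18.5% of all genes tested. edgeR called 0 in each of the 3 comparisons, and DESeq2 called 0, 1 (Sfmbt2) and 0. Over all genes edgeR called 525, 1059 and 488, and DESeq2 called 929, 1634 and 899. The comparisons share the 3 wild-type embryos.

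The estimates were small as well as uncalled. The median log2 fold change of the 38 genes was 0.03 for NEO-IN against wild-type, with 0.00 over all genes, and 0.01 for NEO-OUT against wild-type. Without regard to sign, the median was 0.08 in NEO-IN and 0.12 in NEO-OUT versus wild-type, against 0.11 and 0.13 over all genes tested. None of the 38 genes reached 0.5 in either direction. The 95% confidence interval lay within 0.5 of 0 on the log2 scale for 32 genes in NEO-IN and for 30 genes in NEO-OUT. The intervals that reached farther included those of the low genes Kcnq1ot1, Airn, Rtl1 and Nap1l5 in both strains. Genes at higher levels were among them too. In NEO-IN these were Asb4 (to -0.59) and Slc22a18 (to 0.51). In NEO-OUT these were Zim1 (to -0.75), Plagl1 (to -0.67), Sfmbt2 (to 0.57) and Cdkn1c (to 0.56). Grouped by allele, the medians in NEO-IN versus wild-type were -0.01 for paternally expressed, 0.06 for maternally expressed and -0.02 for mixed genes. The same medians in NEO-OUT versus wild-type were 0.02, 0.01 and -0.07.

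**Figure D2:**
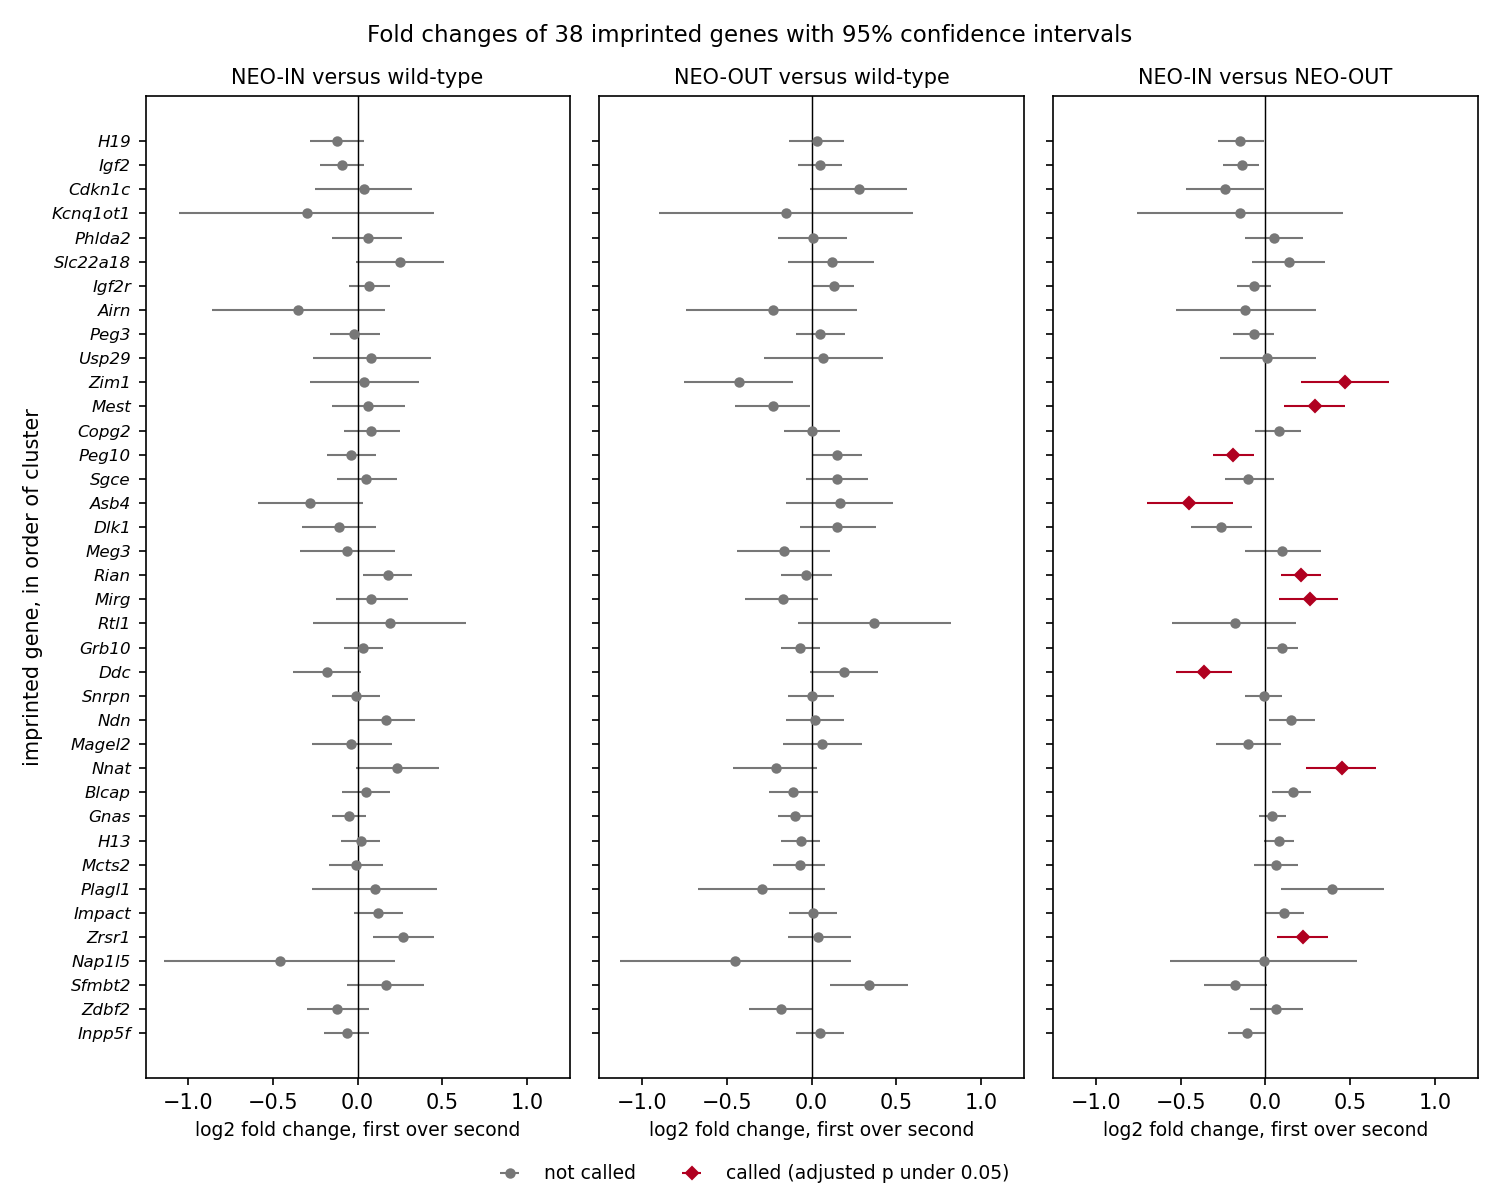
Log2 fold change of 38 imprinted genes for NEO-IN and for NEO-OUT against wild-type and for NEO-IN against NEO-OUT, with 95% confidence intervals from limma; red diamonds are called genes. Called genes appear only in NEO-IN versus NEO-OUT, with 6 to the right of 0 and 3 to the left.

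The mutant strains differed from each other at 9 of the 38 imprinted genes. That is 23.7% of them, beside 13.3% of all genes tested in NEO-IN versus NEO-OUT. Nnat, Zim1, Mest, Mirg, Zrsr1 and Rian were higher in NEO-IN, and Ddc, Asb4 and Peg10 were lower. The called genes came from both parental classes, with 3 higher and 1 lower among the paternally expressed, 3 higher and 1 lower among the maternally expressed, and 1 lower among the mixed. Coordinates below are in GRCm38, and a value after ± beside a group mean is the SD. Fold changes were at most 1.39-fold in either direction. None of the 38 genes separated every NEO-IN embryo from every NEO-OUT embryo, beside 5.82% of all genes. edgeR called 7 and DESeq2 called 12 of the 38, beside 2157 and 2684 of all 16430 genes. At an unadjusted limma p under 0.05 there were 18 imprinted genes, or 47.4%, against 27.8% of all genes tested. This contrast does not use the wild-type embryos in its difference and is the test of whether the strain effects differ.

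Visceral endoderm markers moved in the same contrast. All 10 had a negative log2 fold change in NEO-IN versus NEO-OUT and 4 were called lower, while 2 were called higher in NEO-OUT versus wild-type. Their summed normalized count was 422187 to 531940 in NEO-IN, 488780 to 584912 in NEO-OUT and 490458 to 518477 in wild-type embryos. Trophoblast markers summed to 35820 to 49954 in NEO-IN, 38622 to 49634 in NEO-OUT and 35899 to 39366 in wild-type embryos, with 1 of 13 called lower in NEO-IN versus NEO-OUT and 1 called higher in each strain versus wild-type. Markers of maternal decidua, of which 4 of 5 passed the limit of 10, summed to 628 to 923 in NEO-IN, 635 to 719 in NEO-OUT and 650 to 699 in wild-type embryos, and 1 of them was called higher in NEO-IN versus NEO-OUT. The decidua sum of 923 was in NEO-IN 6, and the next highest of all libraries was 723. Of 9 parietal endoderm and 5 epiblast markers, 1 each was called higher in NEO-IN versus NEO-OUT, and 1 epiblast marker was called lower in NEO-OUT versus wild-type. The single called markers do not stand for their lists. Log2 fold changes in NEO-IN versus NEO-OUT were negative for 4 of 5 epiblast and 3 of 4 decidua markers. They were also negative for 4 of 9 parietal endoderm and 8 of 13 trophoblast markers. With a trophoblast score as a covariate 10 imprinted genes were called between the strains, beside 1920 of all genes. Without the covariate the counts were 9 and 2180. The part of visceral endoderm and of maternal decidua in the result was not tested.

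The count of called genes between the strains depended on which embryos entered. Without NEO-OUT 10 to 12 it was 1 (Rian), where the count over all genes was also lower, at 752 against 2180. Without NEO-IN 1 to 3 it was 5 (1495 over all genes), without NEO-IN 4 to 6 it was 4 (1382 over all genes), and with only the libraries free of Y-linked reads it was 4 (1218 over all genes). Leaving out NEO-IN 5 or NEO-OUT 10 alone also gave 4, with 1700 and 1673 over all genes. Nnat, Zim1 and Ddc were called with any single library left out, whereas Zrsr1 and Mirg were called in 4 and 3 of 15 such fits. With runs of 3 consecutive libraries as a random block, Nnat, Zim1, Mest, Ddc and Asb4 were called, with 1432 genes in all. Rian, Peg10, Zrsr1 and Mirg lost their calls under that block (limma adjusted p = 0.0518, 0.0732, 0.0869 and 0.096). The submitters' labels give no litter or batch, so whether the embryos of a run shared either is not known. Primitive blood markers summed to 2082, 2490 and 2760 in NEO-OUT 10 to 12, against 4280, 3342 and 8188 in NEO-OUT 7 to 9. Epiblast markers summed to 25317, 22908 and 21867 in NEO-OUT 10 to 12, against 20832, 19991 and 18922 in NEO-OUT 7 to 9. The ranges were 3075 to 6259 and 18759 to 22119 in NEO-IN, and 2767 to 3048 and 21130 to 23471 in wild-type embryos. The part of these differences in the calls was not tested.

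Nnat (ENSMUSG00000067786.13, chromosome 2 from 157560078 to 157562522 on the plus strand), which encodes a small membrane protein of the endoplasmic reticulum and is expressed from the paternal allele, was higher in NEO-IN. Its normalized count was lowest at 3527, with a median of 4533 and a highest value of 5129 in NEO-IN, against 2662, 3313 and 3866 in NEO-OUT. The wild-type embryos had 3696, 3412 and 4137 and lay between the medians of the strains, where the ranges of all groups overlap. NEO-IN versus NEO-OUT gave a log2 fold change of 0.45 (± 0.10 SE, adjusted p = 0.00564 by limma), or 1.36-fold. It was 0.23 (SE 0.12) in NEO-IN and -0.21 (SE 0.12) in NEO-OUT versus wild-type, neither of them called. Its call was lost without NEO-OUT 10 to 12 (limma adjusted p = 0.0515) and with only libraries free of Y-linked reads (limma adjusted p = 0.0798). Blcap, which lies over Nnat on the opposite strand and is expressed from either or both alleles by isoform, averaged 1148 ± 83.7 in NEO-IN, 1030 ± 63.5 in NEO-OUT and 1107 ± 20.6 in wild-type embryos. Blcap was not called between the strains (0.16 ± 0.06 SE, adjusted p = 0.0753 by limma) unless NEO-OUT 7 was left out (limma adjusted p = 0.0306). The strand used in counting is not given in the sources used here, so reads of Nnat and Blcap, as of other opposite-strand pairs, may not be fully separated.

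In the Peg3 cluster the zinc finger gene Zim1, maternally expressed, was called and its paternally expressed neighbours Peg3 and Usp29 were not. Zim1 (ENSMUSG00000002266.12, chromosome 7 from 6671269 to 6696450 on the minus strand) had 195, 248 and 275 (lowest, median, highest) in NEO-IN and 132, 174 and 221 in NEO-OUT. Wild-type embryos had 220, 238 and 252, and 5 of 6 NEO-IN embryos lay above every NEO-OUT embryo. Zim1 changed by 0.47 on the log2 scale (± 0.12 SE, adjusted p = 0.0182 by limma) in NEO-IN versus NEO-OUT. Versus wild-type its log2 fold change was 0.04 in NEO-IN and -0.43 in NEO-OUT (limma adjusted p = 0.0978 in NEO-OUT). Between the strains Zim1 was not called without NEO-OUT 10 to 12, where its log2 fold change was 0.27 (limma adjusted p = 0.258), without NEO-IN 1 to 3 (0.43, limma adjusted p = 0.118) or with only libraries free of Y-linked reads (0.51, limma adjusted p = 0.0937). Peg3, a zinc finger gene known for roles in growth and maternal behaviour, had 43304, 52204 and 55049 in NEO-IN and 51084, 52255 and 60610 in NEO-OUT. Its wild-type values of 49609, 55159 and 50388 fell inside the range of the mutant embryos. Usp29, which encodes a ubiquitin protease, averaged 247 ± 37.6 in NEO-IN, 247 ± 48.7 in NEO-OUT and 231 ± 17.4 in wild-type embryos.

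Mest (ENSMUSG00000051855.12, chromosome 6 from 30723547 to 30748465 on the plus strand), a paternally expressed gene of the alpha/beta hydrolase fold family, was higher in NEO-IN, and the values split by number within NEO-OUT. NEO-IN embryos had 26048, 28399 and 33086 (lowest, median, highest), and NEO-OUT embryos had 19592, 23783 and 27647. Wild-type embryos had 27986, 25831 and 29027. NEO-OUT 7, 8 and 9 had 27367, 25087 and 27647, near wild-type, and NEO-OUT 10, 11 and 12 had 19592, 22479 and 20395. NEO-OUT 8, 10, 11 and 12 lay below every NEO-IN and wild-type embryo. The log2 fold change in NEO-IN versus NEO-OUT was 0.29 (± 0.08 SE, adjusted p = 0.03 by limma) and lost its call without NEO-OUT 10 to 12 (0.11, limma adjusted p = 0.444) and without NEO-IN 4 to 6 (0.17, limma adjusted p = 0.307). It also lost its call without any of NEO-IN 4, 5 and 6 or NEO-OUT 10, 11 and 12, with limma adjusted p-values up to 0.0702. Copg2, a coat protein subunit gene that overlaps Mest on the opposite strand, averaged 4775 ± 371 in NEO-IN, 4538 ± 470 in NEO-OUT and 4511 ± 268 in wild-type embryos, with an uncalled 0.08 between the strains.

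**Figure D3:**
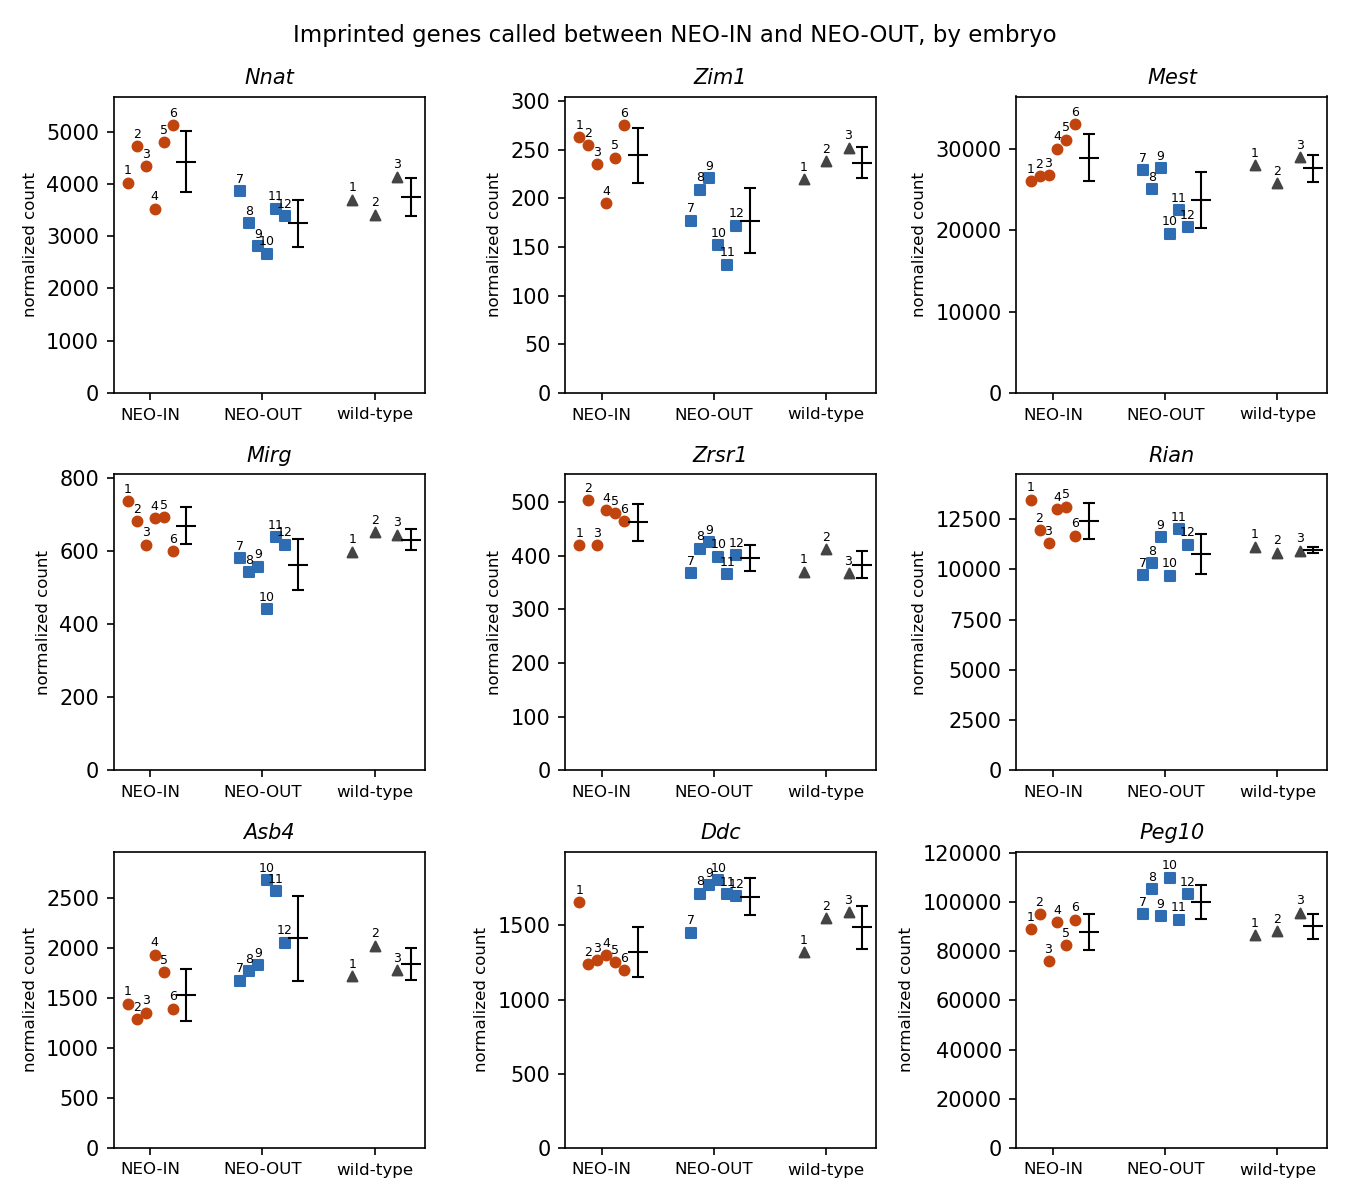
Normalized counts, by embryo, of the 9 imprinted genes called in NEO-IN versus NEO-OUT; numbers name the embryos, and the bar beside each group gives the mean with the SD. Nnat, Zim1, Mest, Mirg, Zrsr1 and Rian are higher in NEO-IN, Asb4, Ddc and Peg10 are lower, and the ranges of NEO-IN and NEO-OUT overlap for every gene.

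The Peg10 cluster on chromosome 6 was lower in NEO-IN for both of its called genes, which are expressed from opposite alleles. Peg10 (ENSMUSG00000092035.5, chromosome 6 from 4747306 to 4760517 on the plus strand), a retrotransposon-derived gene needed for the placenta and paternally expressed, had 76083, 90407 and 95247 in NEO-IN and 92877, 99198 and 109988 in NEO-OUT. Wild-type embryos had 86440, 88225 and 95707, near the NEO-IN values. Peg10 differed by -0.19 on the log2 scale (± 0.06 SE, adjusted p = 0.0356 by limma) in NEO-IN relative to NEO-OUT, and the call ended without NEO-IN 3 or 5 or NEO-OUT 8, 10 or 12, with limma adjusted p-values up to 0.0844. The Peg10 call was also lost without any of the 4 runs of 3 libraries (limma adjusted p from 0.063 to 0.201) and with only libraries free of Y-linked reads (limma adjusted p = 0.122). Asb4 (ENSMUSG00000042607.12, chromosome 6 from 5383386 to 5433022 on the plus strand), a maternally expressed gene for an ankyrin repeat and SOCS box protein, had 1288, 1415 and 1930 in NEO-IN and 1670, 1940 and 2672 in NEO-OUT. Its wild-type values were 1714, 2021 and 1776. NEO-OUT 10, 11 and 12 were the 3 highest embryos, with 2672, 2565 and 2052. Between the strains the log2 value of Asb4 differed by -0.45 (± 0.12 SE, adjusted p = 0.0221 by limma), by -0.22 without NEO-OUT 10 to 12 (limma adjusted p = 0.318), by -0.30 without NEO-IN 1 to 3 (limma adjusted p = 0.225) and by -0.34 with only libraries free of Y-linked reads (limma adjusted p = 0.231). Leaving out NEO-IN 2, NEO-OUT 10 or NEO-OUT 11 also ended the call, with limma adjusted p of 0.0507, 0.0503 and 0.0532. Sgce, which encodes epsilon-sarcoglycan and starts beside Peg10, averaged 1784 ± 193 in NEO-IN, 1907 ± 146 in NEO-OUT and 1713 ± 43 in wild-type embryos and was not called.

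In the Dlk1-Dio3 cluster on chromosome 12, the 3 noncoding RNA genes had positive log2 fold changes in NEO-IN versus NEO-OUT and the 3 protein-coding genes negative ones. The first 3 are noncoding RNA genes and maternally expressed, the other 3 are protein-coding and paternally expressed, and 3 of the 6 were called. Rian (ENSMUSG00000097451.6, chromosome 12 from 109603940 to 109661716 on the plus strand), host of small nucleolar RNAs and microRNAs, had 11301, 12468 and 13460 in NEO-IN, 9683, 10768 and 11992 in NEO-OUT, and 11135, 10836 and 10925 in wild-type embryos. Every NEO-IN embryo lay above every wild-type embryo for Rian, as for Zrsr1, and these 2 of 38 genes stand beside 10.8% of all genes whose NEO-IN and wild-type ranges do not overlap. None of the 38 genes had such ranges in NEO-OUT versus wild-type, beside 13.7% of all genes. Rian was called between the strains (0.21 ± 0.06 SE, adjusted p = 0.0233 by limma) but not versus wild-type in NEO-IN (0.18 ± 0.07 SE, adjusted p = 0.195 by limma). Its call ended without NEO-IN 5 (limma adjusted p = 0.0533) or NEO-OUT 10 (limma adjusted p = 0.0555), without NEO-IN 4 to 6 (limma adjusted p = 0.128) or NEO-OUT 7 to 9 (limma adjusted p = 0.0954), and with a random block for each run of 3 (limma adjusted p = 0.0518).

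Mirg (ENSMUSG00000097391.5, chromosome 12 from 109729764 to 109749460 on the plus strand), the microRNA host at the far end of the noncoding run, had 601, 686 and 737 in NEO-IN, 442, 570 and 639 in NEO-OUT, and 599, 652 and 646 in wild-type embryos. NEO-OUT 10 was lowest, and the NEO-IN median lay above every wild-type embryo. Mirg was called between the strains (0.26 ± 0.08 SE, adjusted p = 0.049 by limma), and the call held only without NEO-IN 6, NEO-OUT 11 or NEO-OUT 12 among the 15 fits that left out a library, with limma adjusted p-values up to 0.0978 in the others. The Mirg call was also lost without any run of 3 libraries (limma adjusted p from 0.0878 to 0.173) and with runs as a random block. It held under 6 of 28 alternatives and was lost with edgeR (edgeR adjusted p = 0.0598). Meg3, the noncoding RNA nearest the control region, averaged 2232 ± 208 in NEO-IN, 2100 ± 364 in NEO-OUT and 2333 ± 305 in wild-type embryos and was not called. Dlk1, which encodes a transmembrane protein with epidermal growth factor repeats, averaged 5432 ± 775 in NEO-IN, 6473 ± 431 in NEO-OUT and 5845 ± 867 in wild-type embryos. It lay just outside the threshold between the strains (-0.26 ± 0.09 SE, adjusted p = 0.0511 by limma), and was called without wild-type 3, NEO-IN 1 or NEO-IN 2 (limma adjusted p = 0.0366, 0.0172 and 0.0497). Dlk1 was also called by DESeq2 (DESeq2 adjusted p = 0.0263) and without NEO-IN 1 to 3 (-0.42, limma adjusted p = 0.00674). Libraries free of Y-linked reads gave -0.41 (limma adjusted p = 0.0242). A pseudocount of 10, only the groups compared and the trophoblast covariate called it too (limma adjusted p = 0.0495, 0.0481 and 0.0281). Rtl1, a retrotransposon-derived gene of the placenta that lies opposite several microRNAs, had 75.3, 88.1 and 128 in NEO-IN, 73.4, 117 and 128 in NEO-OUT, and 81.1, 101 and 68.9 in wild-type embryos. These ranges overlap throughout, and Rtl1 was not called. Dio3, a thyroid hormone deiodinase gene outside the list of 40, was called lower in NEO-IN than its NEO-OUT level (-0.48 ± 0.11 SE, adjusted p = 0.00759 by limma).

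**Figure D4:**
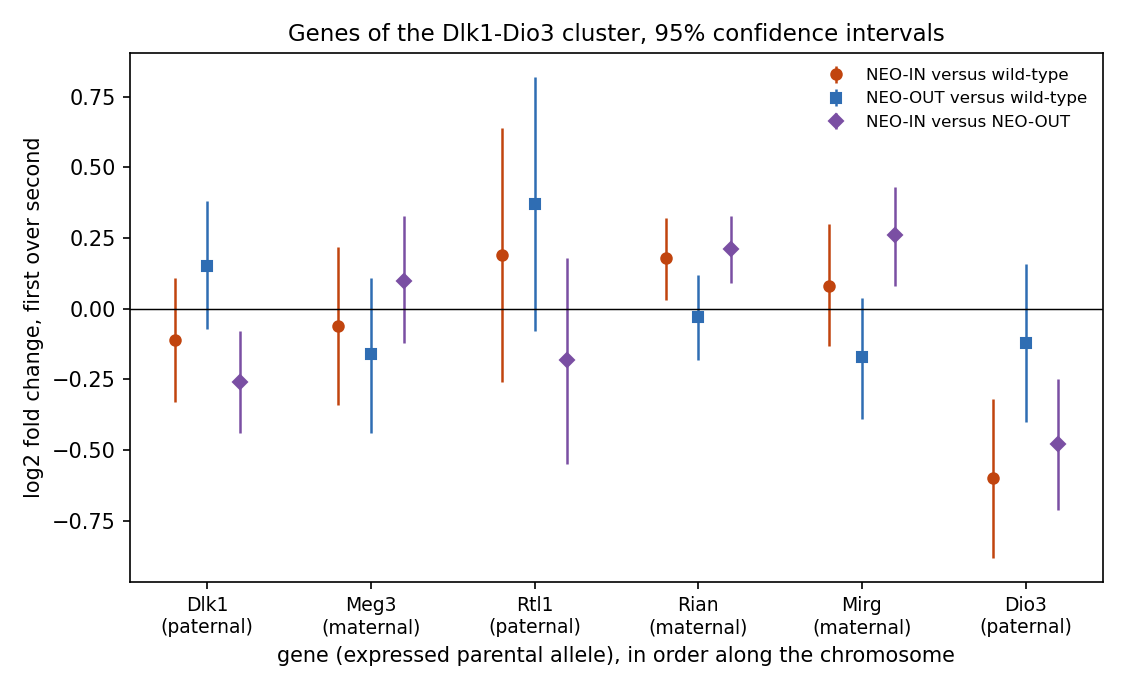
Log2 fold change with 95% confidence interval of 6 genes of the Dlk1-Dio3 cluster, in order along chromosome 12, for NEO-IN and for NEO-OUT against wild-type and for NEO-IN against NEO-OUT. In NEO-IN versus NEO-OUT, Rian and Mirg lie above 0 and Dio3 below it with intervals that leave out 0, as does that of Dlk1, which was not called.

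In the Grb10 cluster on chromosome 11, Ddc was lower in NEO-IN and its neighbour was not called. Ddc (ENSMUSG00000020182.13, chromosome 11 from 11814101 to 11898144 on the minus strand), which encodes aromatic amino acid decarboxylase and is imprinted in an isoform-dependent way, had 1196, 1259 and 1656 in NEO-IN and 1450, 1713 and 1802 in NEO-OUT. Wild-type embryos had 1320, 1550 and 1587. NEO-IN 1 had 1656 and stood above the other 5 NEO-IN embryos, which lay below every NEO-OUT embryo. On the log2 scale Ddc differed by -0.36 (± 0.08 SE, adjusted p = 0.00506 by limma) between the strains. Without NEO-OUT 10 to 12 the limma adjusted p was 0.0878, and without NEO-IN 4 to 6 it was 0.075. Grb10, an adaptor that dampens insulin receptor signalling, had 44318, 46133 and 48863 in NEO-IN and 38067, 43858 and 46584 in NEO-OUT. Its wild-type values were 45934, 45173 and 44187, and Grb10 was not called between the strains (0.10 ± 0.04 SE, adjusted p = 0.156 by limma).

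Zrsr1 (ENSMUSG00000044068.6, chromosome 11 from 22972005 to 22976496 on the plus strand), a retrocopy of a splicing factor gene, was the ninth called gene. It had 420, 472 and 504 in NEO-IN, 366, 400 and 425 in NEO-OUT, and 370, 412 and 367 in wild-type embryos. Its log2 fold change came to 0.22 (± 0.07 SE, adjusted p = 0.0453 by limma) in NEO-IN versus NEO-OUT and 0.27 (± 0.09 SE, adjusted p = 0.111 by limma) in NEO-IN versus wild-type, which was not called. Its call between the strains held without wild-type 2, NEO-IN 1, NEO-IN 3 or NEO-OUT 9 and was lost without any of the other 11 libraries, with limma adjusted p-values up to 0.1. Without any run of 3 libraries, or with runs as a random block, Zrsr1 was not called, with limma adjusted p-values up to 0.259. Its call held under 6 of 28 alternatives and was lost with edgeR (edgeR adjusted p = 0.0509). Zrsr1 lies inside Commd1 on the opposite strand and resembles its parent gene, so its count is uncertain.

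At the H19/Igf2 cluster on chromosome 7, the ratio of the genes had similar means in all groups. H19, the maternally expressed noncoding RNA, had 309433, 339241 and 359382 in NEO-IN, 313653, 376651 and 425916 in NEO-OUT, and 353267, 356178 and 386330 in wild-type embryos. Igf2, the paternally expressed growth factor, had 87699, 89243 and 97799 in NEO-IN, 90744, 99076 and 110889 in NEO-OUT, and 95631, 89669 and 105453 in wild-type embryos. For both genes the NEO-OUT median was the highest of the 3 and the groups overlap. The ratio of H19 to Igf2 normalized counts averaged 3.71 ± 0.178 in NEO-IN, 3.72 ± 0.267 in NEO-OUT and 3.78 ± 0.17 in wild-type embryos. Neither gene was called between the strains (H19 -0.15 ± 0.06 SE, adjusted p = 0.135 by limma; Igf2 -0.14 ± 0.05 SE, adjusted p = 0.0664 by limma). H19 was called lower in NEO-IN without NEO-OUT 9 (limma adjusted p = 0.0216), and Igf2 without NEO-IN 6 or NEO-OUT 10 (limma adjusted p = 0.0472 and 0.033).

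Over all groups pooled, H19 and Igf2 levels were correlated. Libraries were permuted without regard to group, so differences between the groups enter the correlations over 15 libraries. Over 15 libraries Pearson's r of log2 values was 0.78 (permutation p = 0.00052, adjusted p = 0.0052 over 10 pairs of cluster neighbours) and Spearman's rho was 0.81 (permutation p = 0.00037, adjusted p = 0.0037). Without the 2 libraries farthest from the median of H19, NEO-OUT 12 and NEO-IN 1, r was 0.69. Within NEO-IN it was 0.62 and within NEO-OUT 0.70 (exact permutation p = 0.185 and 0.114, n = 6 each). Nnat and Blcap had r = 0.72 (permutation p = 0.00238, adjusted p = 0.0119) and rho = 0.73 (permutation p = 0.00261, adjusted p = 0.013), with r = 0.67 without NEO-OUT 10 and NEO-IN 6, 0.57 within NEO-IN and 0.31 within NEO-OUT (exact permutation p = 0.237 and 0.604, n = 6 each). Without NEO-IN 6 the r of Nnat and Blcap was 0.62 and no longer passed (permutation adjusted p = 0.079). The other 8 pairs did not pass after adjustment. Cdkn1c and Phlda2 came nearest (r = 0.60, permutation p = 0.0191, adjusted p = 0.0636), and within the strains had r = 0.81 in NEO-IN and 0.91 in NEO-OUT (exact permutation p = 0.0694 and 0.0208, n = 6 each). The pair of Cdkn1c and Phlda2 passed when NEO-IN 3 or NEO-OUT 8 was left out (permutation adjusted p = 0.0418 and 0.0415). Snrpn and Ndn had r = -0.43 over all libraries (permutation adjusted p = 0.206), with -0.16 in NEO-IN and -0.94 in NEO-OUT (exact permutation p = 0.743 and 0.00972, n = 6 each). Peg3 and Usp29 had r = 0.44 (permutation adjusted p = 0.206), with 0.79 in NEO-IN and 0.35 in NEO-OUT (exact permutation p = 0.0333 and 0.533, n = 6 each). The within-strain p-values are unadjusted, and those of the remaining 5 pairs were between 0.0556 and 0.885. All libraries share 1 table and its scaling.

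**Figure D5:**
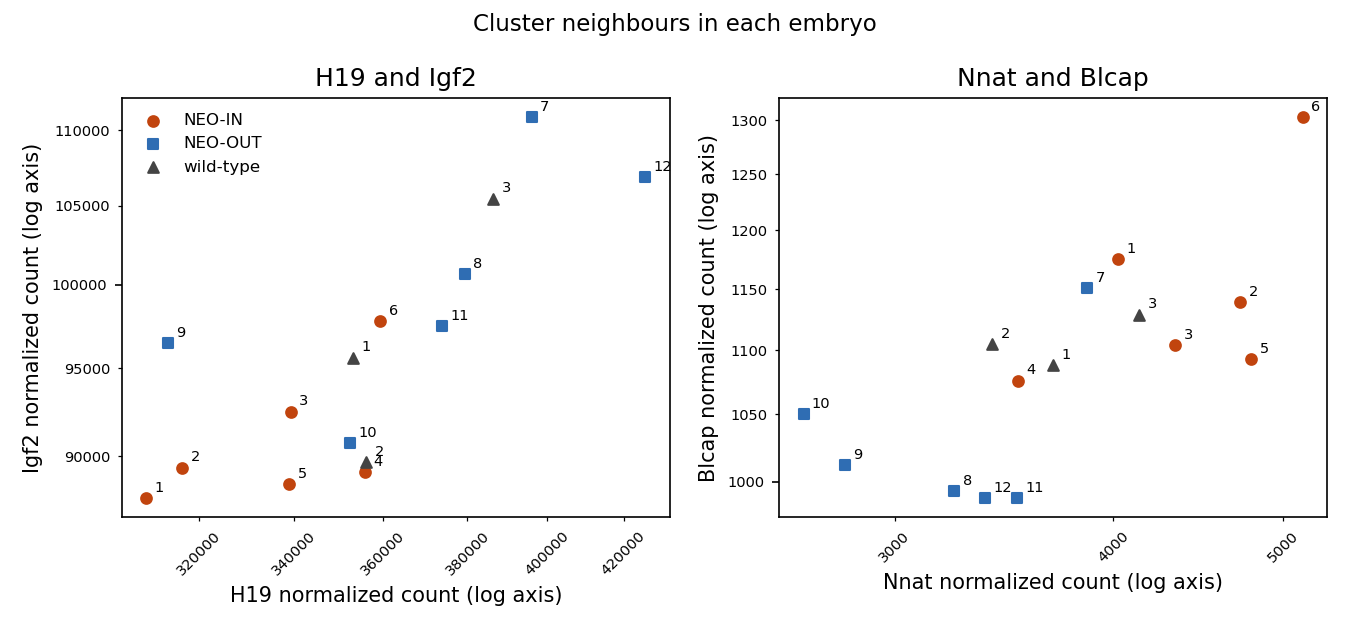
Normalized counts (log axes) of H19 against Igf2 and of Nnat against Blcap in 15 embryos, with numbers naming the embryos of each group. Embryos with more H19 have more Igf2 (r = 0.78) and embryos with more Nnat have more Blcap (r = 0.72).

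The Kcnq1ot1 cluster beside H19/Igf2 holds maternally expressed genes that restrain growth, and none was called in the 4 comparisons. Cdkn1c, an inhibitor of cyclin-dependent kinases, averaged 6070 ± 778 in NEO-IN, 7255 ± 1510 in NEO-OUT and 5880 ± 93.3 in wild-type embryos. Phlda2, which limits placental growth, averaged 19938 ± 2791 in NEO-IN, 19193 ± 1882 in NEO-OUT and 19040 ± 1102 in wild-type embryos. Cdkn1c was called between the strains, lower in NEO-IN, only when NEO-OUT 9 was left out (limma adjusted p = 0.0453). The mutant embryos spread more widely than the 3 wild-type embryos for both genes. Slc22a18, a transporter gene, averaged 448 ± 35.7 in NEO-IN, 410 ± 57.1 in NEO-OUT and 378 ± 61.4 in wild-type embryos. Kcnq1ot1, the paternally expressed antisense RNA that silences the cluster, had 27.3, 50.5 and 73.8 in NEO-IN, 27.4, 51.2 and 94.6 in NEO-OUT, and 60.3, 37.6 and 78.2 in wild-type embryos. With an SD of 0.52 on the log2 scale it was the most variable of the 38 genes, and its groups overlap fully.

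The Igf2r/Airn cluster on chromosome 17 had no called gene in any comparison. Igf2r, the maternally expressed receptor that clears IGF2, averaged 20373 ± 1488 in NEO-IN, 21323 ± 882 in NEO-OUT and 19433 ± 1114 in wild-type embryos. Airn, the paternally expressed antisense RNA that silences Igf2r, had 56.3, 101 and 142 in NEO-IN, 83.1, 104 and 120 in NEO-OUT, and 157, 90.1 and 127 in wild-type embryos. The highest Airn value was a wild-type embryo, and the lowest was in NEO-IN. The log2 fold change of Airn was -0.35 (95% confidence interval -0.86 to 0.16) in NEO-IN and -0.23 (-0.74 to 0.27) in NEO-OUT versus wild-type.

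The Snrpn/Ndn cluster, whose loss in people causes Prader-Willi syndrome, is paternally expressed and had no called gene. Snrpn, a splicing protein gene, averaged 4145 ± 317 in NEO-IN, 4166 ± 278 in NEO-OUT and 4164 ± 110 in wild-type embryos. Ndn, a gene of the MAGE family, averaged 2038 ± 156 in NEO-IN, 1834 ± 153 in NEO-OUT and 1811 ± 179 in wild-type embryos. Magel2, of the same family, averaged 313 ± 20.8 in NEO-IN, 336 ± 27.5 in NEO-OUT and 324 ± 58.6 in wild-type embryos. Group means of Snrpn differed by less than their SD, and the estimate with the smallest p was that of Ndn in NEO-IN versus NEO-OUT (0.15 ± 0.07 SE, adjusted p = 0.134 by limma). Without NEO-OUT 7 to 9, Ndn was called in that contrast (0.25, limma adjusted p = 0.0404).

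On chromosome 2, Gnas, H13, Mcts2 and Sfmbt2 were not called. Gnas, which encodes the stimulatory G protein alpha subunit and has isoforms of each allele, averaged 37714 ± 1346 in NEO-IN, 36622 ± 1958 in NEO-OUT and 39131 ± 1392 in wild-type embryos. H13, a signal peptide peptidase gene, averaged 5384 ± 254 in NEO-IN, 5094 ± 271 in NEO-OUT and 5323 ± 337 in wild-type embryos. Mcts2, a paternally expressed retrocopy inside H13 on the same strand, averaged 973 ± 59.9 in NEO-IN, 934 ± 73.4 in NEO-OUT and 979 ± 55.3 in wild-type embryos. For all 3 genes the ranges of the mutant and wild-type embryos overlap. Sfmbt2, a Polycomb gene needed to maintain trophoblast, averaged 7441 ± 1080 in NEO-IN, 8373 ± 943 in NEO-OUT and 6577 ± 238 in wild-type embryos. In NEO-OUT versus wild-type it had the smallest limma adjusted p of the 38 genes (0.34 ± 0.11 SE, adjusted p = 0.0694 by limma), 5 of 6 NEO-OUT embryos lay above every wild-type embryo, and DESeq2 called it (adjusted p = 0.0192). limma called it without NEO-IN 5 or NEO-OUT 11 (limma adjusted p = 0.0487 and 0.0286). In NEO-IN versus NEO-OUT, Sfmbt2 was called only with the trophoblast score as a covariate (-0.23, limma adjusted p = 0.0457).

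The genes of single loci were likewise uncalled, apart from Zrsr1. Plagl1, a zinc finger transcription factor gene, had 560, 669 and 818 in NEO-IN, 337, 524 and 688 in NEO-OUT, and 617, 555 and 732 in wild-type embryos. NEO-OUT 10 was the lowest, and between the strains Plagl1 had a log2 fold change of 0.39 (± 0.14 SE, adjusted p = 0.0831 by limma), called without NEO-OUT 7 (limma adjusted p = 0.0348). Impact, a regulator of translation, averaged 3319 ± 257 in NEO-IN, 3066 ± 209 in NEO-OUT and 3040 ± 145 in wild-type embryos. Nap1l5, a retrocopy inside Herc3, had 17.8, 38.6 and 50.8 in NEO-IN, 25.6, 33.9 and 52.4 in NEO-OUT, and 37.4, 65.3 and 48.4 in wild-type embryos. Its log2 fold changes versus wild-type were the largest of the 38, at -0.46 in NEO-IN and -0.45 in NEO-OUT, with intervals from -1.14 to 0.22 and from -1.13 to 0.23. Zdbf2, a gene for a zinc finger protein, averaged 2204 ± 187 in NEO-IN, 2117 ± 248 in NEO-OUT and 2381 ± 90.4 in wild-type embryos. Inpp5f, a phosphoinositide phosphatase gene with an imprinted isoform, averaged 4418 ± 375 in NEO-IN, 4769 ± 251 in NEO-OUT and 4606 ± 130 in wild-type embryos. Between the strains Inpp5f was called only without NEO-IN 4 to 6 (-0.20, limma adjusted p = 0.0389).

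A further 45 genes reported as imprinted in mouse were called at shares near those of all genes. Of the 41 that could be tested, 1 was called for NEO-IN (Dio3), 1 for NEO-OUT (Herc3) and 0 for Apela KO against wild-type, or 2.44, 2.44 and 0%, beside 2.98, 6.35 and 2.83% of all genes. Between NEO-IN and NEO-OUT, 3 were higher in NEO-IN and 4 lower, or 17.1% beside 13.3% of all genes, and the medians of the list lay within 0.02 of 0 in these comparisons. Dio3 averaged 153 ± 17.4 in NEO-IN, 214 ± 30.3 in NEO-OUT and 231 ± 13 in wild-type embryos. Every NEO-IN embryo (137 to 185) lay below every wild-type embryo (221 to 246), and the log2 fold change was -0.60 (± 0.13 SE, adjusted p = 0.0198 by limma). The call versus wild-type ended without wild-type 1, 2 or 3, with limma adjusted p of 0.0693, 0.0646 and 0.0979. The Dio3 call also ended without NEO-IN 1 to 3 (limma adjusted p = 0.0802), with only libraries free of Y-linked reads (limma adjusted p = 0.0717) and with runs of 3 as a random block (limma adjusted p = 0.0527). Herc3, a ubiquitin ligase gene around Nap1l5, averaged 2192 ± 136 in NEO-IN, 1695 ± 94.4 in NEO-OUT and 2170 ± 103 in wild-type embryos. All NEO-OUT embryos (1602 to 1862) lay below all others for Herc3, and its log2 fold change was 0.37 (± 0.05 SE, adjusted p = 0.000141 by limma) between NEO-IN and NEO-OUT and -0.36 (± 0.06 SE, adjusted p = 0.00261 by limma) in NEO-OUT versus wild-type.

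The remaining calls of that list were between the strains. Dcn and Smoc1, genes for extracellular matrix proteins, were higher in NEO-IN (1.22 and 0.23, limma adjusted p = 0.0162 and 0.025). Pon2, a lactonase gene of the Peg10 region, was lower (-0.40, limma adjusted p = 0.00248), as was Calcr, the calcitonin receptor gene of the same region (-0.49, limma adjusted p = 0.0485). Trappc9, a vesicle transport gene, was lower with wide spread in NEO-IN, at 844 ± 254 against 1177 ± 64 in NEO-OUT (-0.53, limma adjusted p = 0.025). Of the 15 fits that left out a library, Smoc1 lost its call without NEO-IN 2 or 6 or NEO-OUT 10 or 11, Trappc9 without NEO-IN 1, 2 or 3, and Calcr in all but those without NEO-IN 4, NEO-IN 5 or NEO-OUT 9. Without NEO-OUT 10 to 12, Herc3 and Dcn kept their calls and Dio3, Smoc1, Calcr, Pon2 and Trappc9 lost theirs. Dcn, at means of 22 in NEO-IN and 9.57 in NEO-OUT, was not called without NEO-OUT 7 to 9 (0.71, limma adjusted p = 0.189), NEO-IN 1 to 3 (1.26, limma adjusted p = 0.0745) or NEO-IN 4 to 6 (1.18, limma adjusted p = 0.0982), or with only libraries free of Y-linked reads (1.35, limma adjusted p = 0.0709). Without NEO-IN 1 to 3 the log2 fold change of Trappc9 was -0.13 and that of Pon2 was -0.26, and neither was called (limma adjusted p = 0.275 and 0.0524). With runs of 3 as a random block Smoc1 and Calcr lost their calls (limma adjusted p = 0.0522 and 0.0889). Herc3 was called under every alternative run.

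Among 19 genes for proteins that set or keep imprints, Arid4b and Uhrf1 were called. For NEO-IN against wild-type 1 was called, or 5.26% beside 2.98% of all genes, and 0 were called for NEO-OUT and for Apela KO against wild-type, beside 6.35% and 2.83%. In NEO-IN versus NEO-OUT 2 were called higher, or 10.5% beside 13.3% of all genes. Arid4b, a chromatin protein gene with a role in imprinting at the Snrpn region, averaged 2608 ± 116 in NEO-IN, 2066 ± 138 in NEO-OUT and 2070 ± 128 in wild-type embryos. Every NEO-IN embryo (2442 to 2734) lay above every NEO-OUT (1840 to 2242) and wild-type embryo (1945 to 2201). On the log2 scale the difference was 0.34 (± 0.05 SE, adjusted p = 0.000346 by limma) versus NEO-OUT and 0.33 (± 0.06 SE, adjusted p = 0.00589 by limma) versus wild-type, and the call versus wild-type was lost without wild-type 3 (limma adjusted p = 0.0527). Uhrf1, which directs maintenance methylation, averaged 23518 ± 988 in NEO-IN, 21549 ± 993 in NEO-OUT and 21868 ± 211 in wild-type embryos (0.13 ± 0.04 SE, adjusted p = 0.0268 by limma in NEO-IN versus NEO-OUT). Its call ended without NEO-IN 1, NEO-OUT 10 or NEO-OUT 12, with limma adjusted p of 0.0531, 0.0627 and 0.0636, and its log2 fold change was 0.08 without NEO-OUT 10 to 12 and 0.09 without NEO-IN 1 to 3 (limma adjusted p = 0.329 and 0.204).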

How the data were processed

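Polyadenylated RNA of whole embryos was made into TruSeq Stranded mRNA libraries, per the labels' protocols. Build mm10 and the tools kallisto, DESeq2, featureCounts, Picard and STAR are named, per the submitters' processing notes, with no role for any of them. The deposited signal table holds counts per gene that the authors scaled by library size factors, called normalized counts here. Whole reads were recovered for 100.0% of values (within 0.01), with size factors of 0.8495 to 1.0735. Between 76.9% and 79.1% of recovered counts from 1 to 20 were even, so both mates of a pair may have been counted and independent fragments may be fewer. The labels name separate embryos as samples.

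Normalized counts were tested in R 4.3.3 with limma 3.58.1 (trend) on log2(value + 1), a scale that understates changes of low genes, over 16430 genes with a mean of at least 10. A single fit held all 15 libraries in 3 groups, Benjamini-Hochberg adjusted p under 0.05 was called, and the fit was tested on simulated data. Correlations used two-sided permutation tests (100000 resamples over all libraries, exact within strains; scipy 1.17.1). edgeR 4.0.16 (quasi-likelihood) and DESeq2 1.42.0 were run on the recovered reads. Further alternatives used a pseudocount of 10, no filter, TMM scaling and changes in the libraries and groups fitted and in the covariates. The genes and lists were chosen with earlier results of these data known. Every gene past the limit is named, with the value in every library (lowest, median and highest in groups of 6) for called genes, the 5 highest and the 5 most variable. Symbols and coordinates came from GENCODE for mm10. Python 3.11.15 with matplotlib 3.10.9 drew the figures.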

Additional observations from a re-analysis of the deposited data

Results flagged for a closer look

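In 5 of 76 groups of 6 embryos, a single embryo stood apart from the others by Dixon's criterion, and chance alone gives about 1 in 20. Ddc was high in NEO-IN 1 (1656, the nearest other NEO-IN embryo being 1297) and low in NEO-OUT 7 (1450, nearest 1697). Peg3 was high in NEO-OUT 8 (60610, nearest 54250). Magel2 was low in NEO-OUT 9 (282, nearest 340), and Zdbf2 was low in NEO-IN 3 (1848, nearest 2169). Both Ddc embryos lie on the side of the other strain.

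The effects of the NEO-IN and NEO-OUT strains differed by the limma test of their difference for 9 genes. The log2 fold changes in NEO-IN versus NEO-OUT were 0.47 for Zim1, 0.45 for Nnat, 0.29 for Mest, 0.26 for Mirg, 0.22 for Zrsr1 and 0.21 for Rian. They were -0.45 for Asb4, -0.36 for Ddc and -0.19 for Peg10. All were uncalled in either strain versus wild-type.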

How the results depend on the processing

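The 3 wild-type embryos limit every comparison with wild-type, and depth limits the genes below a normalized count of 100 (Kcnq1ot1, Nap1l5 and Rtl1). Leaving out runs of 3 consecutive libraries was chosen after seeing the data. In NEO-IN versus wild-type no alternative called any of the 38 genes except the replicate block, with 1 (Asb4, -0.43, limma adjusted p = 0.0474). In that block the numbers 1 to 3 of NEO-IN and wild-type embryos were paired. Same-numbered embryos did not deviate together (r of 0.07, -0.02 and 0.00), and 1 of the 3 wild-type numbers correlated best with its own number in NEO-IN. The block called 487 genes in all, against 489 without it. In NEO-OUT versus wild-type the count was 1 with only the groups compared and 1 with DESeq2 (Sfmbt2), 0 to 1 with single libraries left out, and 2 without NEO-OUT 7 to 9 (Mest and Zim1). Over all genes the counts were 832 with only the groups compared, 1634 with DESeq2 and 984 without NEO-OUT 7 to 9. In Apela KO versus wild-type it was 0 under all alternatives run.

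In NEO-IN versus NEO-OUT the count of 9 was 4 with only libraries free of Y-linked reads, 5 with runs of 3 as a random block, 4 to 10 with single libraries left out, 5 without NEO-IN 1 to 3, 4 without NEO-IN 4 to 6 and 1 without NEO-OUT 10 to 12. Under the other alternatives it was between 6 (no filter on low values) and 12 (DESeq2), where 1799 and 2684 genes were called in all. The cause of these shifts was not tested. No called log2 fold change reversed. Uncalled values changed sign in 43 of 1102, 38 of 1064, 66 of 1026 and 38 of 812 cases for NEO-IN, NEO-OUT and Apela KO against wild-type and for NEO-IN against NEO-OUT.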
